A study of Arabidopsis thaliana with 6 samples.

Results

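Photosynthesis genes of the plant nucleus were compared between seedlings of the mutant cog1-2D and of wild type Arabidopsis thaliana. The set holds 49 genes of 33617 in the deposited table, chosen by locus as the nuclear genes of photosystems I and II, their antennae, plastocyanin, ferredoxin, ferredoxin-NADP+ reductase (FNR) and ATP synthase. All 49 were found, 23 on the plus strand of the reference and 26 on the minus strand. The cog1-2D seedlings carry an activation tag, an insertion meant to raise expression of the transcription factor gene COG1, and the wild type was Col-0. Both genotypes were untreated, reached an age of 7 days on MS medium under long days at 23 °C, and gave 3 messenger RNA libraries each from whole seedlings, made with a kit that keeps strand information. The labels do not say how separately the 3 seedling samples of a genotype were grown, so p-values measure only the spread between these samples.

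Photosystem II splits water at its oxygen-evolving complex and passes electrons through the cytochrome b6f complex and plastocyanin to photosystem I, which reduces ferredoxin. FNR then makes NADPH, and ATP synthase uses the proton gradient built on the way. Light is gathered by chlorophyll-binding antenna proteins, the LHCA proteins around photosystem I and the LHCB proteins around photosystem II, whose nuclear genes are among the most strongly expressed in green tissue and respond to light. COG1 is a transcription factor of the Dof family and is known to dampen phytochrome light signalling.

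In cog1-2D, 6 of the 49 genes were higher and 1 was lower. Those that rose were PSAE2, PSAH2 and PSAK of photosystem I, PSBQ1 of the oxygen-evolving complex, LFNR2, a leaf FNR, and LHCB4.3, a minor photosystem II antenna gene of low level. The fall was in LHCB4.2, which encodes the minor antenna protein CP29, to 0.666 of its wild type count. The rises were smaller, between 1.14-fold and 1.3-fold. All 7 lie on the plus strand. The counts moved with single libraries, to 2 higher without cog1-2D replicate 1, 3 higher without cog1-2D replicate 2, 2 lower without wild type replicate 0 (LHCA3 and LHCB4.2), and 8 higher and 3 lower without wild type replicate 1 (with LHCB1.1 and LHCB2.1, on the minus strand, among the lower). Across the table, 36.3% of the 10347 genes tested passed in either direction (edgeR's quasi-likelihood test, Benjamini-Hochberg adjusted p under 0.05 over all genes tested). On the plus strand, 16.5% of the 10136 genes tested were higher and 20.4% lower. The 6 rises and 1 fall among 23 plus-strand members are to be read against those shares, and no test set the members against other genes.

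The members fell into separate ranges of level by strand. The 23 plus-strand members are PSAE2, PSAH2, PSAK, PSAL, PSBO1, PSBP1, PSBQ1, PSBR, PSBS, PETC, FD2, LFNR2, ATPD, LHCA2, LHCA3, LHCB1.3, LHCB1.4, LHCB2.3, LHCB3, LHCB4.1, LHCB4.2, LHCB4.3 and LHCB5. Their mean levels per genotype ran from 90.5 to 23932 FPKM, fragments scaled by transcript length and library size. The 26 minus-strand members are PSAD1, PSAD2, PSAE1, PSAF, PSAG, PSAH1, PSAN, PSAO, PSBO2, PSBQ2, PSBW, PSBX, PSBY, PSBTN, PETE1, PETE2, LFNR1, ATPC1, LHCA1, LHCA4, LHCB1.1, LHCB1.2, LHCB1.5, LHCB2.1, LHCB2.2 and LHCB6. They had between 1.01 and 17.6 FPKM. The minus-strand genes hold only residual fragments in all 6 libraries, so their values do not give their expression. The strand setting used in the counting is not given in the sources used here.

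**Figure D1:**
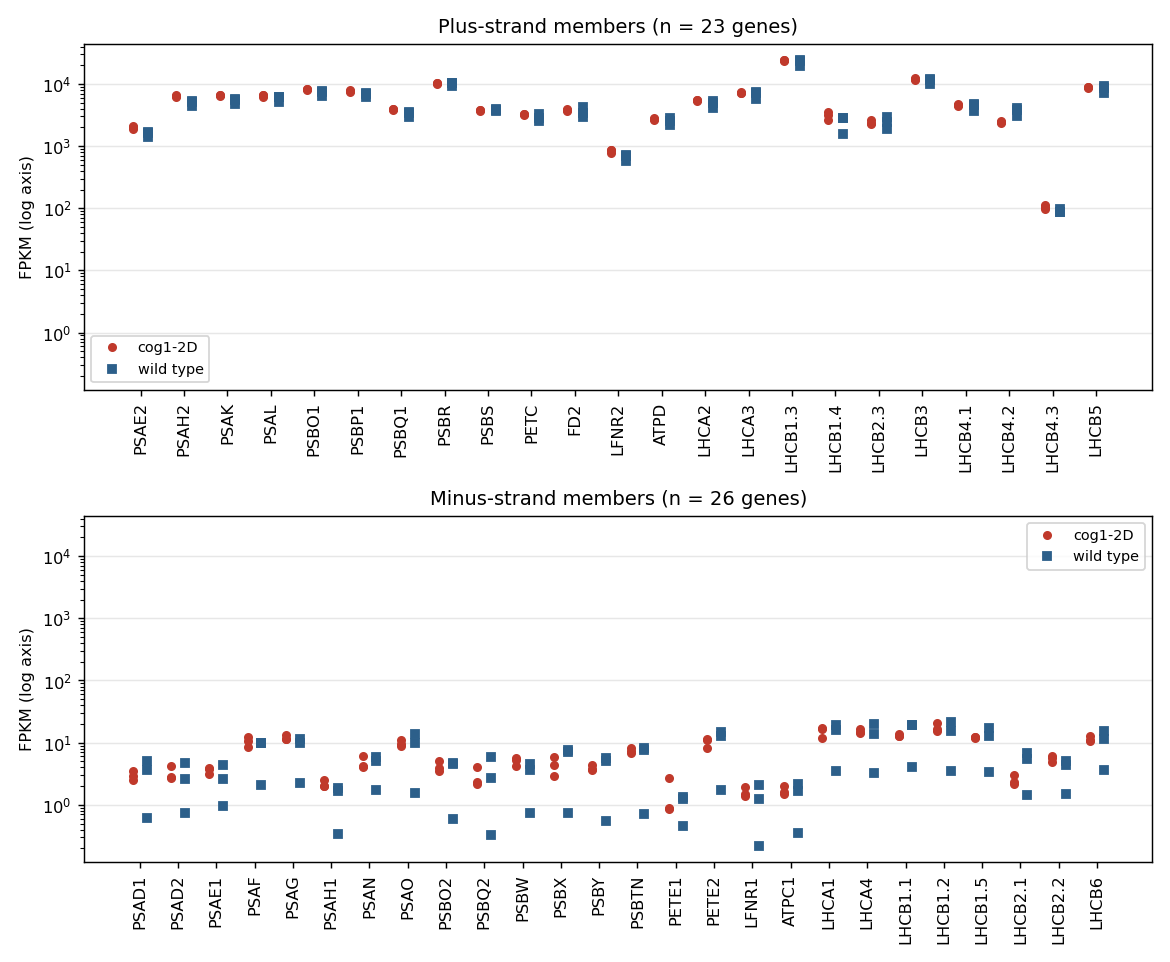
FPKM on a log axis of each of the 49 genes in each library, with the 3 cog1-2D libraries as red circles left of the 3 wild type libraries as blue squares, plus-strand genes above and minus-strand genes below. Plus-strand means per genotype lie between 90.5 and 23932 FPKM and minus-strand means between 1.01 and 17.6 FPKM.

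Libraries held between 10575945 and 11202122 fragments. Wild type replicate 0 was low in photosynthesis transcripts, with 11.0% of its fragments on the 23 plus-strand members. The cog1-2D libraries had 12.8%, 13.2% and 13.3%, and wild type replicates 1 and 2 had 12.9% and 12.7%. Of the 23 genes, 20 were lowest in wild type replicate 0 in CPM (TMM-scaled counts at a common depth). Wild type replicate 1 was low on the minus strand, with 0.0302% of its protein-coding fragments there, against 0.140% to 0.154% in cog1-2D and 0.169% in each of the other wild type libraries. COG1 itself lies on the minus strand, with 0, 3 and 3 fragments in cog1-2D and 0 throughout in wild type, so the genotypes could not be checked through it.

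Over the 23 plus-strand members the median log2 fold change was 0.13 (positive meaning higher in cog1-2D), with 19 positive and 4 negative, while the median of all genes tested was 0.00. Without wild type replicate 0 the members' median was 0.05, with 15 positive and 8 negative, and 5 members were then higher and 2 lower. Of all genes tested in that fit, 13.5% were higher and 17.4% lower. Among members that did not pass, leaving out that library also took PSAL to 0.05, PSBO1 to 0.09 and LHCA2 to 0.08. The 3 cog1-2D libraries all lay above the 3 wild type libraries in CPM for 9 of the 23 and all below for 1. Over all plus-strand genes tested these shares were 24.6% and 26.0%. In bulk seedlings, fewer cells of a type and less RNA per cell cannot be told apart. Of 8 mesophyll markers, mostly minus-strand genes, 0 passed edgeR's test, 0 had an unadjusted p under 0.05 there and 0 passed DESeq2. With no low-count filter edgeR called RBCS2B, a Rubisco small subunit gene on the minus strand, higher at 0.60 (adjusted p = 0.0365), and without wild type replicate 1 it was at 0.18. The summed level of the 8 markers was 5492 to 5832 FPKM in cog1-2D and 5086 to 5691 FPKM in wild type. Nearly all of it came from the 2 plus-strand markers. GAPA had means of 3566 and 3379 FPKM in cog1-2D and wild type, and PRK 2054 and 1929 FPKM. The 6 minus-strand markers held only residual fragments and add little to these counts and sums.

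**Figure D2:**
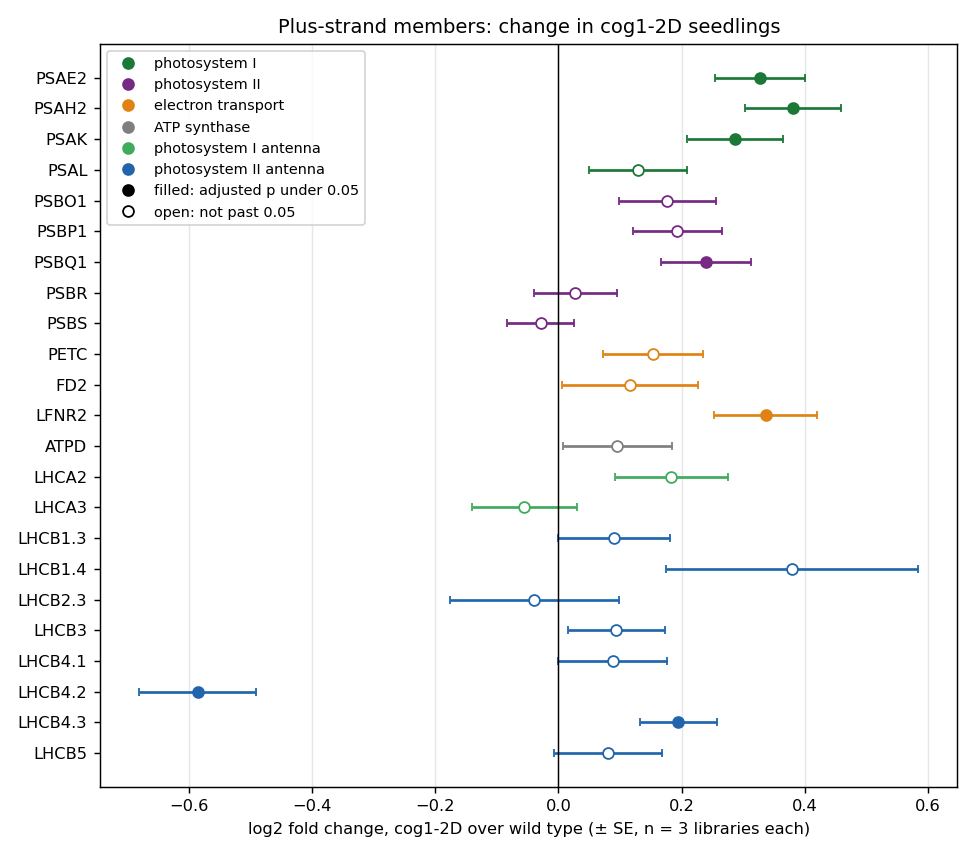
Log2 fold change (cog1-2D over wild type) with its standard error for the 23 plus-strand members, coloured by complex, with 3 libraries per genotype. Filled points passed an adjusted p of 0.05, 6 above 0 and LHCB4.2 below at -0.59, and open points did not.

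In photosystem I, 3 of the 4 plus-strand subunit genes were higher, where 16.5% of all plus-strand genes tested were higher and 20.4% lower. The other 8 subunit genes lie on the minus strand, and with so few genes nothing is read from this count. PSAH2 (AT1G52230, chr1:19454798-19455668, plus strand) encodes a subunit at which mobile light-harvesting complex II docks during state transitions. It had 6185, 6503 and 6746 FPKM in cog1-2D, against 4351, 5100.4 and 5299 FPKM in wild type. Every cog1-2D library was above every wild type library. Its log2 fold change was 0.38 ± 0.08 (SE, n = 3 per genotype, edgeR's quasi-likelihood test, adjusted p = 0.00506). PSAE2 (AT2G20260, chr2:8736734-8737767, plus strand) encodes a stromal subunit that helps ferredoxin to bind. It had 1869, 2028 and 2069 FPKM in cog1-2D, against 1401, 1628 and 1658 FPKM in wild type, again without overlap. This was a log2 fold change of 0.33 ± 0.07 (SE, edgeR, adjusted p = 0.00749). Both calls held in all 16 alternatives tried, each single library left out included.

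The sequence just upstream of these genes is shown because they were the most stable rises, cut where a neighbouring gene begins. Capitals mark matches on either strand to the G-box CACGTG, a core bound by light-responsive factors, the I-box GATAAG, the CCAAT box and the TATA box TATAAA. Sequence is from RefSeq's TAIR10.1.
PSAE2 upstream, chr2:8736598-8736733, plus strand: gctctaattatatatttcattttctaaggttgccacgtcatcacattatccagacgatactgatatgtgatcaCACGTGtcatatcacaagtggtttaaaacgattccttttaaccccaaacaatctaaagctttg
PSAH2 upstream, chr1:19454766-19454797, plus strand: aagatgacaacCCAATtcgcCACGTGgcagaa
Each printed stretch holds 1 G-box, and PSAH2 has a CCAAT box beside it. Over the full 250 bases upstream, 10 of the 49 members hold a G-box (20.4%), against 6.5% of 27431 promoters of the same length. The I-box was in 24.5% of members and 12.3% of promoters, the CCAAT box in 65.3% and 46.0%, and the TATA box in 42.9% and 47.3%. The Dof core AAAG, the letters that Dof factors such as COG1 are known to bind, was in 95.9% of members and 98.0% of promoters. Of the 6 genes that rose, PSAE2, PSAH2 and PSBQ1 hold a G-box in that window and PSAK, LFNR2 and LHCB4.3 do not. These are matches of letters, not shown to be sites.

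PSAK (AT1G30380, chr1:10722183-10723247, plus strand) encodes a peripheral subunit next to the antenna. It had 6316, 6718 and 6523 FPKM in cog1-2D, against 4669, 5775 and 5427 FPKM in wild type, without overlap. The rise was 0.29 ± 0.08 on the log2 scale (SE, edgeR, adjusted p = 0.0198). Leaving out cog1-2D replicate 1 (edgeR, adjusted p = 0.0849) or 2 (edgeR, adjusted p = 0.0519) ended the call. PSAL, a subunit next to PSAH, had 6130.05, 6574 and 6759 FPKM in cog1-2D, against 5209, 6250.4 and 6201 FPKM in wild type. The groups overlapped, and its log2 fold change of 0.13 ± 0.08 did not pass (edgeR, adjusted p = 0.234). The 4 photosystem I genes together summed to 21473 ± 854 FPKM in cog1-2D and 17656 ± 1757 FPKM in wild type (SD, n = 3), a ratio of 1.22. The sum over all 23 plus-strand members had a ratio of 1.09. Both sums were lowest in wild type replicate 0. PSAH2 and PSAE2 overlap loci on the other strand, AT1G52240 and AT2G20270, which held 1 and 8 fragments over the 6 libraries. Their minus-strand paralogs, PSAH1 and PSAE1, share 87.0% and 79.5% of coding bases with them, with longest identical runs of 30 and 22 bases. Whether fragments were split between these copies, or between those of LHCB4 described below, was not tested.

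In photosystem II, 1 of 5 plus-strand genes was higher, beside the same shares of 16.5% higher and 20.4% lower. The other 6 genes lie on the minus strand, and nothing is read from this count either. PSBO1, PSBP1 and PSBQ1 are plus-strand genes of the 3 extrinsic proteins of the oxygen-evolving complex. PSBO2 and PSBQ2, paralogs of PSBO1 and PSBQ1, lie on the minus strand with only residual fragments, so their part is not described. PSBQ1 (AT4G21280, chr4:11334352-11335815, plus strand) had 3846, 3973 and 3891 FPKM in cog1-2D, against 2921, 3539.7 and 3384 FPKM in wild type. The rise was 0.24 ± 0.07 on the log2 scale (SE, edgeR, adjusted p = 0.0305). The groups did not overlap, but the call was lost without any 1 of the cog1-2D libraries or without wild type replicate 2 (edgeR, adjusted p = 0.0572 to 0.111), and in limma on FPKM. PSBO1 had 7887, 8304 and 8270.5 FPKM in cog1-2D, against 6321, 7705 and 7503 FPKM in wild type. PSBP1 had 7551, 7793 and 7849.55 FPKM in cog1-2D, against 6154, 6811 and 7242 FPKM in wild type. Neither pair of groups overlapped, and neither gene passed, with log2 fold changes of 0.18 ± 0.08 and 0.19 ± 0.07 (edgeR, adjusted p = 0.114 and 0.0640). PSBP1 passed without wild type replicate 2 (edgeR, adjusted p = 0.0493) and in DESeq2 (adjusted p = 0.0324). PSBP1 overlaps AT1G06670 on its own strand, which held far fewer fragments.

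The other 2 photosystem II genes overlapped between genotypes. PSBR, a small subunit of the oxygen-evolving side, had 9986, 10439 and 10345 FPKM in cog1-2D, against 9115, 10303 and 10462 FPKM in wild type. Its log2 fold change was 0.03 ± 0.07 (edgeR, adjusted p = 0.785). PSBS, the sensor of lumen acidity that switches on heat dissipation, had 3817, 3797 and 3674 FPKM in cog1-2D, against 3728, 3917 and 3798 FPKM in wild type. At -0.03 ± 0.05 it had the smallest standard error of the members (edgeR, adjusted p = 0.715).

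Of the electron transport genes, LFNR2 alone passed. LFNR2 (AT1G20020, chr1:6942625-6945091, plus strand) had 788, 862 and 875 FPKM in cog1-2D, against 570.5, 683 and 714 FPKM in wild type, without overlap. Its log2 fold change was 0.34 ± 0.08 (SE, edgeR, adjusted p = 0.0124), and of the alternatives tried only leaving out cog1-2D replicate 1 ended the call (edgeR, adjusted p = 0.0548). PETC, the Rieske iron-sulfur protein of cytochrome b6f, had 3238, 3248 and 3135 FPKM in cog1-2D, against 2541, 3224 and 2821 FPKM in wild type. FD2, the main leaf ferredoxin, had 4008, 3859 and 3607 FPKM in cog1-2D, against 2976, 4178 and 3359 FPKM in wild type. For both, wild type replicate 1 lay within or above the cog1-2D libraries. Their log2 fold changes of 0.15 ± 0.08 and 0.12 ± 0.11 did not pass (edgeR, adjusted p = 0.170 and 0.444). Without wild type replicate 1 both passed, at 0.24 and 0.26 (edgeR, adjusted p = 0.0328 and 0.0438). Without wild type replicate 0 they were at 0.08 and 0.01 (edgeR, adjusted p = 0.382 and 0.936). ATPD, the delta subunit of the ATP synthase, had 2618, 2734 and 2811 FPKM in cog1-2D, against 2183, 2849.8 and 2560.3 FPKM in wild type. It did not pass, at 0.10 ± 0.09 (edgeR, adjusted p = 0.432).

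LHCB4.2 was the only one of the 48 members tested that was called lower in the fit of all genes, where 9 had negative log2 fold changes. LHCB4.2 (AT3G08940, chr3:2717557-2718923, plus strand) had 2318, 2486 and 2543 FPKM in cog1-2D, against 3078, 4027 and 3868 FPKM in wild type. All 3 cog1-2D libraries lay below wild type, wild type replicate 0 included. Its log2 fold change was -0.59 ± 0.10 (SE, n = 3 per genotype, edgeR, adjusted p = 0.00141), and the call held in all 16 alternatives. LHCB4.1 (AT5G01530, chr5:208866-210548, plus strand), the other main CP29 gene, had 4401, 4589.9 and 4839 FPKM in cog1-2D, against 3712, 4706 and 4525 FPKM in wild type. It did not pass, at 0.09 ± 0.09 (edgeR, adjusted p = 0.470). LHCB4.3 (AT2G40100, chr2:16745628-16747424, plus strand) had 98.1, 105 and 112 FPKM in cog1-2D, against 87.2, 96.4 and 88.0 FPKM in wild type. Its rise of 0.19 ± 0.06 (edgeR, adjusted p = 0.0370) did not hold when either of cog1-2D replicates 1 and 2, or either of wild type replicates 0 and 2, was left out (edgeR, adjusted p = 0.0870 to 0.120), nor in DESeq2 (adjusted p = 0.0834).

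**Figure D3:**
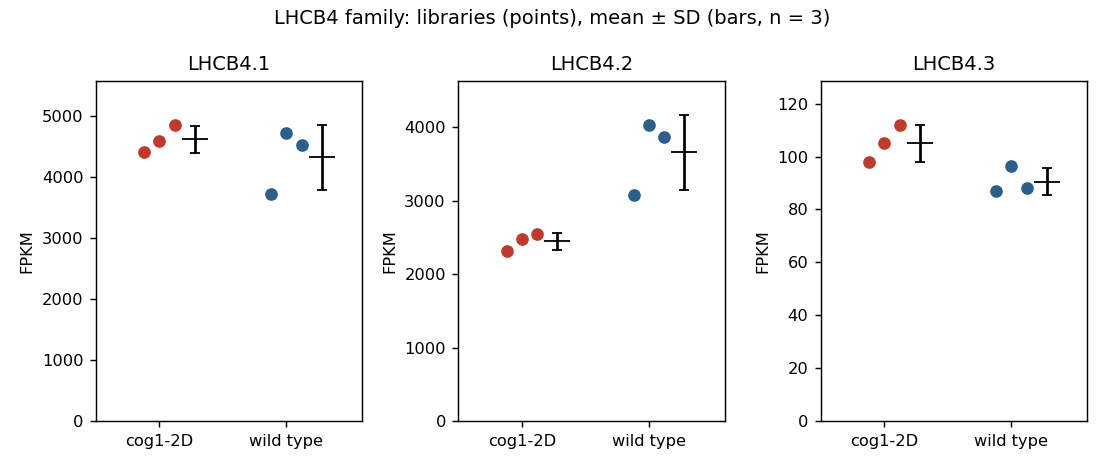
FPKM of the LHCB4 genes in each library, cog1-2D left of wild type, with the mean and SD of 3 libraries as bars. LHCB4.2 lies at 2318 to 2543 FPKM in cog1-2D and 3078 to 4027 FPKM in wild type, while the LHCB4.1 groups overlap.

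Ratios within a library set LHCB4.2 against its paralogs, free of differences in depth between libraries. The log2 ratio of LHCB4.1 to LHCB4.2 FPKM was 0.91 ± 0.02 in cog1-2D and 0.24 ± 0.03 in wild type (SD, n = 3), a difference of 0.67. The log2 ratio of LHCB4.2 to LHCB4.3 was 4.54 ± 0.03 in cog1-2D and 5.33 ± 0.17 in wild type, a difference of -0.78. Each had p = 0.1 in a two-sided exact permutation test, the smallest that 3 against 3 libraries allow, and 0.2 adjusted over the 4 pairs compared. LHCB4.1 over LHCB4.3 differed by -0.11 (exact permutation p = 0.4) and LHCB1.3 over LHCB1.4 by -0.32 (exact permutation p = 0.3).

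The sequences show how the LHCB4 copies differ and what lies upstream. LHCB4.1 and LHCB4.2 share 81.9% of coding bases, with a longest identical run of 23 bases. The last 90 coding bases are shown, with capitals in LHCB4.2 where it differs from LHCB4.1.
LHCB4.1 coding end: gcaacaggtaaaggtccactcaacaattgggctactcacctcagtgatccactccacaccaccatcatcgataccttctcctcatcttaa
LHCB4.2 coding end: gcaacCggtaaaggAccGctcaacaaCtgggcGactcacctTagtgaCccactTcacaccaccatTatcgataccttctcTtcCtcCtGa
They differ at 13 of 90 bases. LHCB4.2 also overlaps AT3G08943 on the other strand, which held 4 fragments over the 6 libraries. Upstream stretches are shown with the same motifs in capitals, that of LHCB4.2 cut at 190 bases where the next gene begins.
LHCB4.1 upstream, chr5:208616-208865, plus strand: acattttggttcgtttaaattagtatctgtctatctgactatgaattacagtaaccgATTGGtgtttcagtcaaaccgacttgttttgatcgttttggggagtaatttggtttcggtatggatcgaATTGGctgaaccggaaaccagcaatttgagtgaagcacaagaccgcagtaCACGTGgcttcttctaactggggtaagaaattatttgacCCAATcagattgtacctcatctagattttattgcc
LHCB4.2 upstream, chr3:2717367-2717556, plus strand: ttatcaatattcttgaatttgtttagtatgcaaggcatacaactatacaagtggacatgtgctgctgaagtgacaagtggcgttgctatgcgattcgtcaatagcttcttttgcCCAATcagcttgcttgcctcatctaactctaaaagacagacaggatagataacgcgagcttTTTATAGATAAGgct
LHCB4.1 holds a G-box and 3 CCAAT boxes. LHCB4.2 holds no CACGTG and has 1 CCAAT box, 1 I-box and 1 TATA box, the last 2 side by side. The Dof core AAAG occurs 0 times in the 250 bases upstream of LHCB4.1, 4 times for LHCB4.2 and 7 times for LHCB4.3. The median over all promoters is 4. These too are matches of letters, not shown to be sites, and their link to the changes was not tested.

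The other plus-strand antenna genes did not pass. LHCB1.3, a main subunit of trimeric light-harvesting complex II, was the most abundant gene of the table per length, with 23254.5, 24101 and 24440.5 FPKM in cog1-2D, against 19099, 24540.1 and 23405 FPKM in wild type. LHCB3, a further trimer subunit, ranked 2 and had 12077, 12483 and 11584 FPKM in cog1-2D, against 9994, 11969 and 11694 FPKM in wild type. Members took ranks 1 to 12 of all genes by mean FPKM. Minus-strand genes hold only residual fragments, so these ranks in effect compare plus-strand genes and do not rank the whole transcriptome. LHCB5, the minor antenna protein CP26, had 8602, 8866 and 8944 FPKM in cog1-2D, against 7101, 9141 and 8606 FPKM in wild type. The log2 fold changes of these genes were 0.09, 0.09 and 0.08, with standard errors of 0.08 to 0.09 (edgeR, adjusted p = 0.477, 0.381 and 0.513). In each, wild type replicate 0 was the lowest library and the groups overlapped.

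LHCB1.4 varied most among plus-strand members. It had 2672, 3199 and 3594 FPKM in cog1-2D, against 1566, 2880.02 and 2793 FPKM in wild type, and its log2 fold change of 0.38 ± 0.20 did not pass (edgeR, adjusted p = 0.178). It was at 0.15 without wild type replicate 0 (edgeR, adjusted p = 0.318), and passed with no low-count filter (0.36, edgeR, adjusted p = 0.00845). LHCB2.3, a subunit phosphorylated in state transitions, had 2299.6, 2326 and 2594 FPKM in cog1-2D, against 1898, 2989 and 2487 FPKM in wild type, at -0.04 ± 0.14 (edgeR, adjusted p = 0.851). Around photosystem I, LHCA2 had 5354, 5475 and 5532 FPKM in cog1-2D, against 4045, 5354 and 4934 FPKM in wild type. It did not pass, at 0.18 ± 0.09 (edgeR, adjusted p = 0.154). LHCA3 had 7094, 7379 and 7175 FPKM in cog1-2D, against 5736, 7339 and 7131 FPKM in wild type. Its sign differed by unit, with -0.06 ± 0.09 on counts (edgeR, adjusted p = 0.649) and 0.11 on FPKM (limma, adjusted p = 0.479). Without wild type replicate 0 it was lower at -0.15 (edgeR, adjusted p = 0.0226). The LHCB1 copies are close, with 95.6% to 96.4% identical coding bases among LHCB1.1, LHCB1.2 and LHCB1.3 and 92.5% between LHCB1.4 and LHCB1.5, so each LHCB1 level is uncertain.

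Of the 26 minus-strand members, 25 passed the low-count filter and 0 passed edgeR's test among all genes, the smallest adjusted p being 0.10. Only LHCB2.1 had an unadjusted p under 0.05 in edgeR, and DESeq2 called 0. PETE1, a plastocyanin gene, was not tested. Their standard errors were wide, 0.35 to 0.65 on the log2 scale, against 0.05 to 0.20 on the plus strand. They held 3 to 249 fragments per library, and all 26 were lowest in wild type replicate 1. That library had a median of 0.183 of the mean of the other wild type libraries for these genes. The other plastocyanin gene, PETE2, had 103, 141 and 142 fragments in cog1-2D and 172, 21 and 182 in wild type. Wild type replicates 0 and 2 lay above the cog1-2D libraries and replicate 1 far below them. The same strand holds the photosystem I docking subunits PSAD1, PSAD2 and PSAF, the leaf FNR gene LFNR1, the ATP synthase gamma subunit ATPC1, and LHCB6 of the minor antenna protein CP24, so the data do not describe these.

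LHCB2.1, a trimer subunit gene (AT2G05100, chr2:1822990-1824480, minus strand), had a different pattern. It had 23, 29 and 22 fragments in cog1-2D, against 70, 16 and 77 in wild type. LHCB2.2 (AT2G05070, chr2:1799234-1800472, minus strand), its near-identical copy, had 63, 49 and 60 fragments in cog1-2D, against 49, 15 and 52 in wild type. Scaled to 10000 fragments on minus-strand coding genes, LHCB2.1 had 15.5, 18.8 and 13.0 in cog1-2D, against 37.1, 49.7 and 43.0 in wild type, with no overlap. LHCB2.2 had 42.5, 31.7 and 35.4 in cog1-2D, against 26.0, 46.6 and 29.0 in wild type, with overlap. In the fit of all genes LHCB2.1 stood at -1.11 ± 0.47 (edgeR, adjusted p = 0.10), at -1.53 without wild type replicate 1 (edgeR, adjusted p = 0.000863) and at -0.74 without wild type replicate 2 (edgeR, adjusted p = 0.297). Fitted among the 209 minus-strand genes alone, it was lower at -1.29 ± 0.22 (SE, n = 3 per genotype, edgeR, adjusted p = 9.51e-05), where 2.87% of genes were lower and 8.61% higher. That fit, and the choice of LHCB2.1 and LHCB2.2, were made after the values were seen. Without any 1 library it stayed called, at -1.17 to -1.38.

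The last 90 coding bases of the LHCB2 genes show how close the minus-strand pair is. They are read in the direction of the coding strand, with capitals where a gene differs from LHCB2.2.
LHCB2.2 coding end: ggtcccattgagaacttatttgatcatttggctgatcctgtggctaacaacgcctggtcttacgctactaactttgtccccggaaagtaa
LHCB2.1 coding end: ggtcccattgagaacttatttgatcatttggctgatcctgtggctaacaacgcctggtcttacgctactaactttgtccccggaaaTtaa
LHCB2.3 coding end: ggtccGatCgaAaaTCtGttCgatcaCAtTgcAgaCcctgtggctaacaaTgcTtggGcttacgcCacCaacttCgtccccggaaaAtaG
LHCB2.1 differs from LHCB2.2 at 1 of these bases and the plus-strand LHCB2.3 at 20. Over their whole coding sequence LHCB2.1 and LHCB2.2 share 96.6% of bases, with an identical run of 152, so fragments can be shared between them and the values of both are uncertain.

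**Figure D4:**
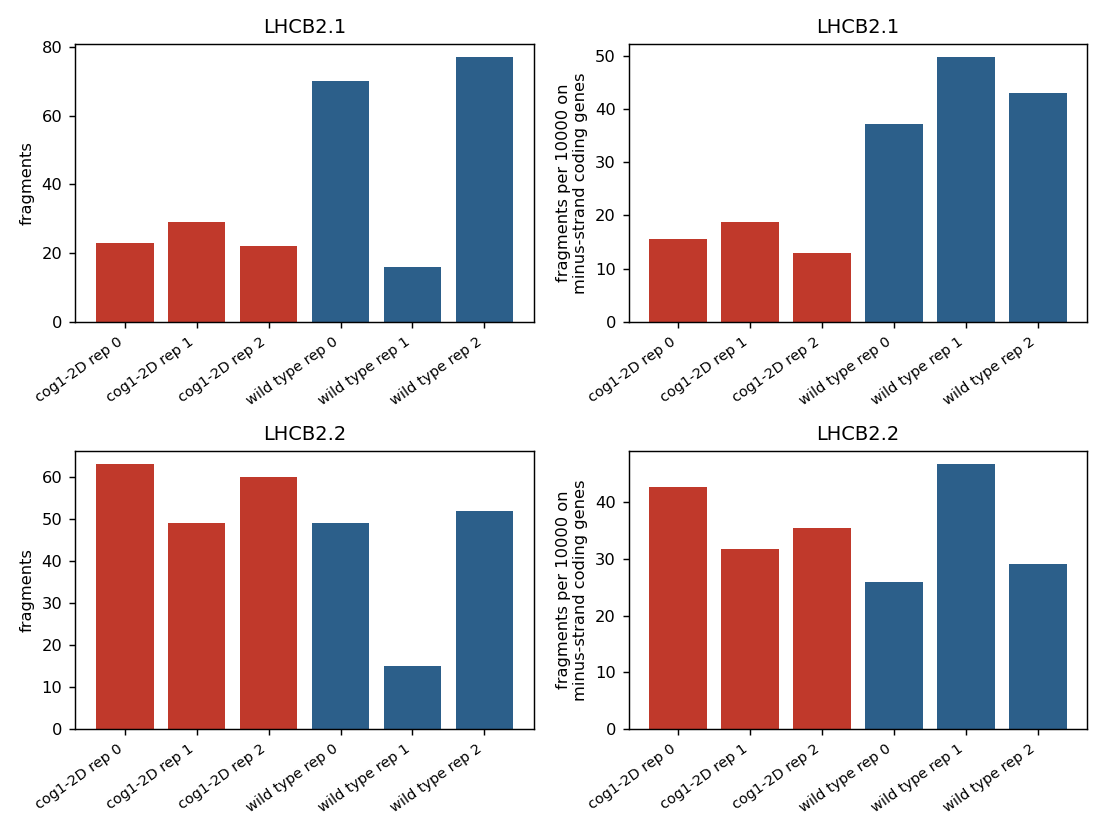
Fragments of LHCB2.1 and LHCB2.2 in each library, as deposited on the left and per 10000 fragments on minus-strand coding genes on the right, with cog1-2D bars left of wild type bars. LHCB2.1 is lower in all 3 cog1-2D libraries once scaled, at 13.0 to 18.8 against 37.1 to 49.7 in wild type, and LHCB2.2 overlaps between genotypes.

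LHCB1.1 was the only other minus-strand member whose scaled values lay wholly below wild type, with 106, 103 and 92.6 in cog1-2D, against 132, 149 and 129 in wild type. It did not pass among the minus-strand genes alone (edgeR, adjusted p = 0.133). PSAH1 and PSBW lay wholly above wild type on that scale and did not pass. Of the 26 members, 2 thus lay wholly below and 2 wholly above. The share of all minus-strand genes without overlap on this scale was not computed, so nothing is read from these counts. Several minus-strand members overlap plus-strand loci with more fragments than their own, among them PSAN and LHCB6.

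The authors' deposited table of calls listed 9 members, 4 on the plus strand and 5 on the minus strand. It listed 15.5% of the 20207 genes above 0 and 24.9% of those on the plus strand. Of the 3124 genes listed, 3088 were plus-strand genes, so few minus-strand genes were listed at all. Its plus-strand members, PSAE2, PSAH2, LFNR2 and LHCB4.2, were also called here, and PSAK, PSBQ1 and LHCB4.3 were not in the authors' deposited table. The authors' deposited table gave LHCB4.2 a log2 fold change of -0.58 (q = 0.00307) and PSAH2 one of 0.40 (q = 0.0334). Its minus-strand members were PSAF, PSBW, LHCB1.2, LHCB2.1 and LHCB2.2, and the authors' deposited table gave LHCB2.1 a value of -0.88 (q = 0.00356). These minus-strand calls rest on residual fragments, which were lowest in wild type replicate 1 for each of these genes.

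Other genes of photosynthesis outside the set went in both directions. Of 94 in 7 lists, 47 were tested, of which 9 were higher and 7 lower, with a median log2 fold change of 0.07. Of the 47, 38 lay on the plus strand, and all the calls were among them. These counts are to be read against the shares over all plus-strand genes tested, 16.5% higher and 20.4% lower. Nothing is read from them about the 7 lists. One list was the chloroplast NDH complex, which returns electrons from ferredoxin to the plastoquinone pool and joins photosystem I in a supercomplex. There 4 of 6 tested genes, all on the plus strand, were higher and 0 lower, with a median of 0.30, where 16.5% of all tested plus-strand genes were higher and 20.4% lower. The list was chosen with earlier results of these data known, and no test set it against other genes. PNSL1, a lumenal NDH subunit, had 543, 538 and 503 FPKM in cog1-2D, against 327, 365 and 356 FPKM in wild type, a log2 fold change of 0.59 ± 0.06 (SE, edgeR, adjusted p = 7.63e-05). PNSL3 rose by 0.41 ± 0.07, PNSL2 by 0.33 ± 0.06 and NDHL by 0.28 ± 0.05 on the log2 scale.

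Regulators and stress-related relatives of the antenna were lower where they passed. GLK2, a transcription factor that activates antenna and chlorophyll genes, had 117, 112 and 99.7 FPKM in cog1-2D, against 186, 196 and 162 FPKM in wild type (-0.73 ± 0.08, edgeR, adjusted p = 0.000162). SIG2, a sigma factor of the chloroplast polymerase, was also lower (-0.55 ± 0.05). GLK1, of the same list and named outside the rule, had means of 137 and 133 FPKM in cog1-2D and wild type. It did not pass (0.03 ± 0.07, edgeR, adjusted p = 0.771). Of 6 tested regulators 2 fell and 0 rose, where 20.4% of all plus-strand genes tested were lower and 16.5% higher. With so few genes, nothing is read from this count or from those of the lists that follow. LIL3.1, an antenna-like protein of chlorophyll synthesis, had 109.6, 109 and 120.1 FPKM in cog1-2D, against 255, 259 and 248 FPKM in wild type (-1.18 ± 0.06, edgeR, adjusted p = 7.3e-07). ELIP2, an early light-induced protein, had 60.7, 58.5 and 67.5 FPKM in cog1-2D, against 175, 96.2 and 95.7 FPKM in wild type, highest in wild type replicate 0. It was lower at -0.99 ± 0.22 (edgeR, adjusted p = 0.00757), and at -0.64 without wild type replicate 0 (edgeR, adjusted p = 0.000304). In that list 2 of 3 tested genes fell, beside the same share of 20.4%. Among 11 tested further subunits and carriers, 2 rose and 2 fell, beside shares of 16.5% and 20.4%. FDC1, a ferredoxin-like protein, fell by 1.01 ± 0.07 and PSB33 by 0.35 ± 0.07 on the log2 scale, and LHCB7, a rarely expressed antenna relative, rose by 0.71 ± 0.07 and PSB28 by 0.22 ± 0.05.

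**Figure D5:**
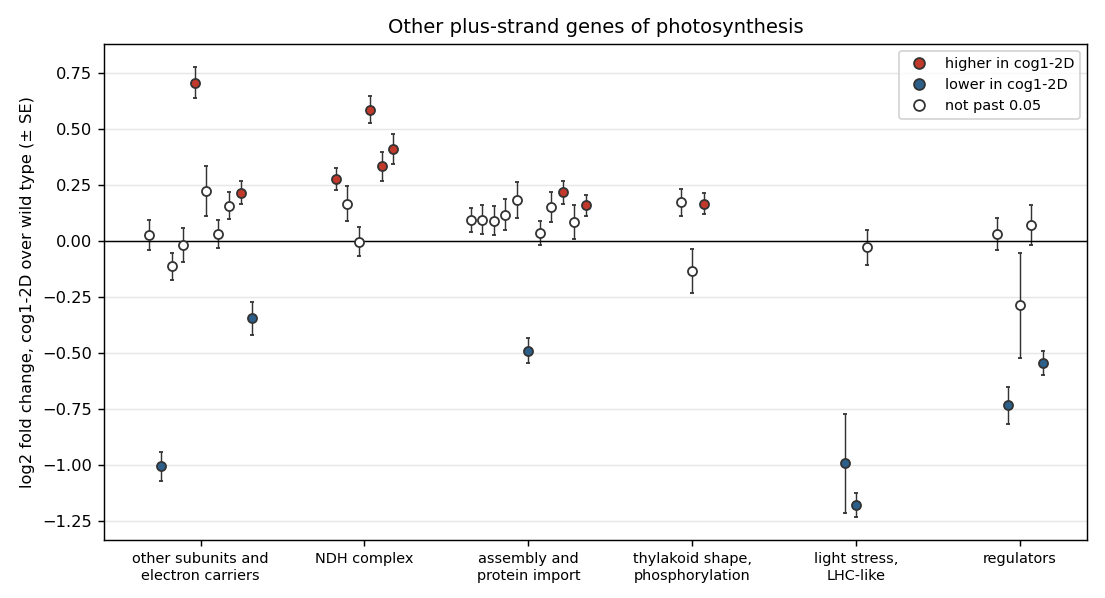
Log2 fold change (cog1-2D over wild type) with its standard error for the plus-strand genes tested in 6 lists outside the set. Red points were higher and blue points lower at an adjusted p of 0.05, with 4 red points of 6 in the NDH complex and 2 blue points each among regulators and light stress genes.

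Of 11 tested assembly and import genes, 2 were higher and 1 lower, beside 16.5% and 20.4% of all plus-strand genes tested. LPA3, an assembly factor of photosystem II, fell by 0.49 ± 0.06 on the log2 scale. THF1 was higher by 0.22 ± 0.05, and did not pass once cog1-2D replicate 1 was left out (edgeR, adjusted p = 0.0558). Y3IP1, an assembly factor of photosystem I, was higher by 0.16 ± 0.05, a call lost without any 1 library but wild type replicate 0 (edgeR, adjusted p = 0.0589 to 0.0830). That call was also lost in DESeq2 (adjusted p = 0.0563) and with no low-count filter (edgeR, adjusted p = 0.138). Of 4 tested genes of thylakoid shape and phosphorylation, the photosystem II kinase gene STN8 was higher by 0.17 ± 0.05. STN8 did not pass when either of cog1-2D replicates 1 and 2, or either of wild type replicates 0 and 2, was left out (edgeR, adjusted p = 0.0557 to 0.0892). Nor did it pass in DESeq2 (adjusted p = 0.0592) or with no low-count filter (edgeR, adjusted p = 0.114). Of 21 chloroplast-encoded genes, which carry few poly(A) tails, 6 were tested and 0 passed in edgeR, with 0 at an unadjusted p under 0.05 and 0 called by DESeq2. With no low-count filter edgeR called PSBD lower at -0.59 (adjusted p = 0.0165), while without wild type replicate 1 it was at -0.03 in the filtered fit. PSBD and PSBC had the smallest p of these, at -0.57 ± 0.35 and -0.37 ± 0.39 (edgeR, adjusted p = 0.233 and 0.495). Their list held 970, 731 and 1106 fragments in cog1-2D, against 803, 1906 and 721 in wild type.

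Markers of other cells were counted beside these values. Of 9 tested root markers, 4 were lower, namely HKT1 (-1.47 ± 0.15), EXPA7 (-1.01 ± 0.11), PRP3 (-0.93 ± 0.11) and SCR (-0.30 ± 0.09). TIP4;1 was higher (0.77 ± 0.07). All 9 lie on the plus strand, where 20.4% of genes tested were lower and 16.5% higher. SCR, named outside the rule, did not pass when either of cog1-2D replicates 1 and 2, or wild type replicate 0, was left out (edgeR, adjusted p = 0.0629 to 0.0873). The summed level of all 11 root markers was 360.4 to 540.1 FPKM in cog1-2D and 325 to 448 FPKM in wild type. Most of that sum was IRT1, with 216, 396 and 353 FPKM in cog1-2D, against 259, 170 and 296 FPKM in wild type. IRT1 did not pass (0.39 ± 0.24, edgeR, adjusted p = 0.235), and the sum says little of the other root markers. COBL9, on the minus strand, was at 0. Of the epidermal and vascular markers only ATML1 and VND7 were tested, and neither passed (edgeR, adjusted p = 0.239 and 0.193). The smallest p among mesophyll markers were those of RBCS2B and PRK (edgeR, adjusted p = 0.271 and 0.313). The part of cell composition in the members' values was not tested.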

How the data were processed

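Messenger RNA libraries of 3 cog1-2D and 3 wild type seedling samples were compared, grouped by their labels. Trimmomatic 0.36, HISAT2 2.1.0, Cufflinks 2.2.1, Cuffdiff and the build TAIR10 are named in the submitters' processing notes, and the order of steps is not given in the sources used here. Per the file headers, the deposited table gives unscaled expected counts of fragments, of which 98.1% were whole within 1e-06. It also holds FPKM, scaled by length and library, per the file headers. A deposited list of the authors' calls gives log2 fold changes and q-values, per the file headers.

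Expected counts were rounded and tested with edgeR 4.0.16 in R 4.3.3 (filterByExpr, TMM factors, quasi-likelihood F-test, genotype as the only term, Benjamini-Hochberg adjustment over 10347 genes at 0.05). A standard error is the log2 fold change divided by the square root of F. Levels are FPKM with SD over 3 libraries. Ratios of paralogs were tested with exact permutation over libraries in scipy 1.17.1. Strand, positions and sequences came from RefSeq's TAIR10.1, in which all 49 members matched by locus, and coding identity from global alignments with Biopython 1.88. Alternatives were DESeq2 1.42.0, factors by RLE or upper quartile, testing with no filter or only genes averaging 50 counts or more, robust fitting, limma 3.58.1 on log2 FPKM with pseudocounts of 1 and 0.1 (mean FPKM of at least 0.5), plus-strand genes only, a replicate block and each library left out. A fit of minus-strand genes alone was added after the values were seen. The steps were tested on simulated counts with 200 genes changed.

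The members and the lists were chosen with earlier results of these data known. Every member is accounted for, plus-strand members by their values and minus-strand members by ranges. From each other list up to 4 called genes with the largest change are named, and where none was called, up to 2 by smallest p. Depth was 10575945 to 11202122 fragments per library.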

Additional observations from a re-analysis of the deposited data

How the results depend on the processing

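Of the members called, PSAE2, PSAH2 and LHCB4.2 stayed called in all 16 alternatives, LFNR2 in 15, PSAK in 14, and PSBQ1 and LHCB4.3 in 10 each. With each library left out in turn, 2 to 8 members were higher and 1 to 3 lower, the fewest rises being without cog1-2D replicate 1. Without the low-count filter 2 members were lower, LHCB4.2 and LHCB2.1, which stood at -1.12 there, and LHCB1.4 was among the 6 higher. With a replicate block 9 members were higher, LHCB1.4 included (0.42, adjusted p = 0.0175), and 1 lower, with 1863 genes higher and 2230 lower overall. Same-numbered libraries did not deviate together (correlations of -0.01, -0.02 and 0.11), so the numbers were not taken as pairs. Among plus-strand members and PSBC, signs turned with no call for LHCA3 in limma on FPKM (0.11), and over the fits that leave out 1 library for PSBR (-0.032 to 0.067), LHCB1.3 (-0.0096 to 0.16), LHCB4.1 (-0.0077 to 0.15), LHCB5 (-0.017 to 0.15), LHCB2.3 (-0.19 to 0.12) and PSBC (-0.63 to 0.34). Wild type replicate 0 turned PSBR, LHCB1.3, LHCB4.1 and LHCB5, and wild type replicate 1 turned LHCB2.3 and PSBC. The cause was not tested. Scalings moved the median of all genes by at most 0.02. Of 25 tested minus-strand members, 18 changed sign over the same fits, among them PSBQ2 (-0.58 to 0.86) and LHCB1.1 (-0.56 to 0.16), which was called lower without wild type replicate 1 (edgeR, adjusted p = 0.00272). These members held 3 to 249 fragments per library, a residue at the same library depth as the plus-strand members.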
